A study of Mus musculus with 15 samples.

Results

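The amino acid transporters described here are the genes of 6 solute carrier families, SLC1, SLC3, SLC7, SLC36, SLC38 and SLC43, taken by gene symbol, with the arginine carriers Slc7a1 and Slc7a2 left out. They are 40 genes of the 34245 in the differentiation table and the same 40 genes of the 25965 in the IL4 table. SLC1 gave 7 members, SLC3 gave 2, SLC7 gave 13, SLC36 gave 4, SLC38 gave 11 and SLC43 gave 3.

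RNA was sequenced from bone marrow cells grown in the macrophage growth factor CSF1 in alpha+ MEM, with 5 groups of 3 libraries labelled mouse 1 to 3. The donors were male, of the strain C57BL/6 and 8 to 10 weeks old. Non-adherent precursors had 2 days in 0.6 ng/ml CSF1 with 15% FCS (fetal calf serum). Immature macrophages were such cells after 4 more days in 12 ng/ml CSF1 with 10% FCS. Mature macrophages had 1 day in 0.6 ng/ml CSF1 as non-adherent cells, then 2 days in 12 ng/ml and 7 days in 120 ng/ml CSF1 with 10% FCS. IL4 macrophages were mature macrophages kept a further 48 hours in 120 ng/ml CSF1 with 20 ng/ml of the cytokine IL4, and unstimulated macrophages had the same 48 hours without IL4. Stage, CSF1 dose and days in culture changed together over the first 3 groups, and serum changed with them between precursors and macrophages, so these cannot be told apart. The unstimulated macrophages stand in another table than the mature macrophages of 10 days, so levels were compared only within a table. The replicates are numbered mice in the sample titles, while the 6 columns of the IL4 table each carry another name (M and a number), so whether same-numbered IL4 and unstimulated libraries come from 1 mouse is not settled by the labels.

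Amino acids cross the plasma membrane on carriers that exchange one amino acid for another, couple to sodium or protons, or let amino acids diffuse down their gradient. The SLC7 light chains are joined by a disulfide bond to the heavy chain encoded by Slc3a2 (CD98), which brings them to the cell surface. Slc1a5 and the SLC38 carriers bring in glutamine and other small neutral amino acids, and others of these proteins sit in the lysosome, where they release amino acids from digested protein and signal to the growth kinase mTORC1. Macrophages use imported cystine for glutathione and glutamine for energy and biosynthesis.

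Library totals were 7897769 to 22167294 reads in the differentiation table and 2408531 to 4214266 reads in the IL4 table. Levels are given as CPM, in which each count is set relative to its own library total, itself adjusted by a TMM factor. Markers of other bone marrow cells moved with the stage. The 14 neutrophil genes summed to 14861 to 22111 CPM in the precursor libraries, 233 to 287 CPM in the immature and 2.69 to 5.66 CPM in the mature libraries, where 9 of them, Mpo, Elane and Ctsg included, had no read. The 8 B cell genes summed to 294 to 421 CPM in the precursor, 2.13 to 2.94 CPM in the immature and at most 0.117 CPM in the mature libraries. The 10 macrophage genes summed to 1516 to 2329 CPM in the precursor, 10425 to 14699 CPM in the immature and 13456 to 17348 CPM in the mature libraries. The part of these other cells in the differences from precursors was not tested, and in bulk RNA fewer cells of a type and less RNA per cell cannot be told apart. In the IL4 table, all 8 B cell genes and all 6 erythroid genes measured had no read in any library, and the 14 neutrophil genes summed to 13.9 to 21.1 CPM with IL4 and 13.1 to 26.3 CPM without. Of 4 IL4 markers tested, 3 rose with IL4 and 1 fell, beside 10.5% higher and 10.3% lower among all genes tested. Those that rose were Arg1, with 1801 CPM with IL4 against 5.10 CPM unstimulated, Cdh1, with 52.4 CPM against 0.242 CPM, and Retnla, with 8824 CPM against 0 CPM. The 4 markers summed to 1318 to 2229 CPM in unstimulated libraries, so the marker that fell held nearly all of that level.

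The sequences upstream of start sites are shown for Slc7a11, which had the lowest fold change between stages among members with reads in all 9 libraries, and for a pair of lysosomal carriers. They are RefSeq sequences on GRCm38.p6, read 5′ to 3′ on the gene's strand. The 250 bases before the start of Slc7a11, on the minus strand at chr3:50443614-50443863, are given with capitals on the matches to TGATGNAA (either strand), the core of the element bound by ATF4 and its C/EBP partners. They begin 66 and 47 bases before the start and face each other.
Slc7a11: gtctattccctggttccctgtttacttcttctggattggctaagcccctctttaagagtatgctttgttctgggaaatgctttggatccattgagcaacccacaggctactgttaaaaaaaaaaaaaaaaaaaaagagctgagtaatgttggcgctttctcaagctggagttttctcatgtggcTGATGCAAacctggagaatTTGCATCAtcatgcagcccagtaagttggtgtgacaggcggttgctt
Of 32841 promoter windows of that length, 3.45% held TGATGNAA. The 30 members with an entry had 40 windows, of which 3 held it, those of 2 members, Slc7a11 and Slc7a7. The E-box CACGTG, a palindrome read by MYC and by TFEB, TFE3 and MITF, stood in 6.02% of all windows. It stood in 7 of the 40 member windows, those of 7 members. Of these members, Slc1a6, Slc1a7, Slc38a5 and Slc7a14 had no read in either table. Other motifs were searched too. The antioxidant response element core of NRF2 stood in 10.2% of all windows and 3 of the 40 member windows. A STAT6 palindrome stood in 5.85% of all windows and 2 of the 40. The core of PU.1 sites stood in 23.3% of all windows and 11 of the 40. Slc7a11 held none of these. Whether member windows differ from all windows was not tested for any motif. For the lysosomal carriers Slc38a7 (chr8:95853508-95853537, minus strand) and Slc36a1 (chr11:55204297-55204326, plus strand) the E-box lay 34 and 31 bases before the start. The 30 bases around the E-box are shown with the E-box in capitals.
Slc38a7: gtgattcaggctCACGTGttacttgagtcg
Slc36a1: ggaatggagcggCACGTGacctgggctagg
The Slc38a7 stretch is upstream of the RefSeq start but lies within the span counted for the gene, chr8:95835920-95853539. These matches describe letters only, and binding was not measured.

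Levels were first summed over all members and over each family. All 40 members summed to 1462 ± 188 CPM in precursors, 1701 ± 12.3 CPM in immature and 1542.5 ± 209 CPM in mature macrophages (SD, n = 3 each). Immature libraries lay above all precursor libraries, and mature libraries overlapped both. They summed to 1598 ± 22.0 CPM with IL4 and 1936 ± 172 CPM without (SD, n = 3 each), with no overlap. The SLC1 sum stepped down by stage, with 74.8 ± 5.74 CPM in precursors, 47.9 ± 11.2 CPM in immature and 21.0 ± 5.63 CPM in mature macrophages, and the stages did not overlap. The SLC3 sum, which was almost all Slc3a2, was 126 ± 47.6, 173 ± 20.9 and 231 ± 47.5 CPM in the same order of stages, with overlap between neighbouring stages and none between precursors and mature macrophages. The SLC7 sum was 287 ± 83.0, 90.2 ± 26.6 and 181 ± 152 CPM, and the mature libraries were too far apart to be placed against either other stage. The SLC36 sum was 110 ± 11.5 CPM, 181 ± 37.0 CPM and 131 ± 12.2 CPM by stage, with overlap between precursor and mature libraries. SLC38 had the most reads of the 6 families at every stage, with 605 ± 21.7, 752 ± 98.8 and 664 ± 87.3 CPM. SLC43 reached 260 ± 39.2, 457 ± 125 and 315 ± 25.9 CPM. In both families immature libraries lay above precursors.

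**Figure D1:**
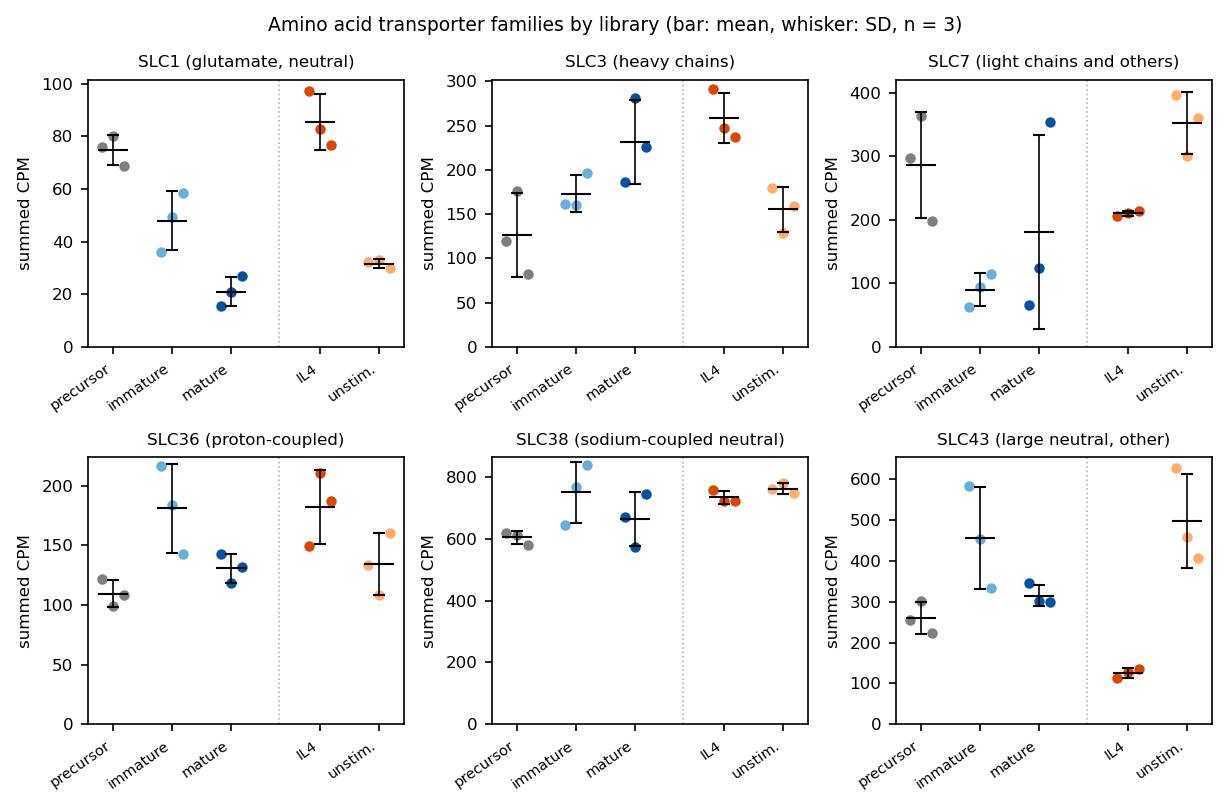
Summed CPM (y axis, linear from 0) of each of the 6 transporter families in every library of the 5 groups (x axis), with precursor, immature and mature libraries left of the dotted line and the IL4 table right of it. Points are libraries and bars and whiskers the mean and SD (n = 3). The SLC1 sum steps down over the stages and is 85.5 CPM with IL4 against 31.7 CPM unstimulated, and SLC43 is 125 CPM against 498 CPM.

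Within the IL4 table the SLC1, SLC3, SLC7 and SLC43 sums did not overlap between groups. SLC1 averaged 85.5 ± 10.6 CPM with IL4 and 31.7 ± 1.66 CPM without, and SLC3 averaged 259 ± 28.4 CPM with IL4 and 156 ± 25.6 CPM without. SLC7 averaged 210.2 ± 3.73 CPM with IL4 and 353 ± 49.1 CPM without, and SLC43 averaged 125 ± 11.3 CPM with IL4 and 498 ± 115 CPM without. SLC1 and SLC3 were higher with IL4, and SLC7 and SLC43 were lower. SLC36 averaged 182 ± 31.0 CPM with IL4 and 134 ± 25.96 CPM without, and SLC38 averaged 736 ± 20.9 CPM with IL4 and 763 ± 17.0 CPM without, both with overlapping libraries. An exact permutation test of 3 against 3 libraries cannot give a p under 0.1, so the sums were not tested.

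Per kilobase of exon, which allows levels to be compared between genes, a few members held most of the level. Each gene had 1 exon length for both tables, although the spans listed for some members differ between them. Slc7a11, for example, spans chr3:49892526-50443614 in the differentiation table and chr3:50364936-50443613 in the IL4 table. The values per kilobase, and the ratios and shares built on them below, carry this limit, whose size was not tested. Slc38a10, an SLC38 member whose transport role is little studied, and the heavy chain Slc3a2 led the order in precursors, with 36.7 ± 2.66 and 35.6 ± 13.5 CPM per kb, and did not differ beyond their spread. In immature macrophages Slc38a10 (57.3 ± 14.1 CPM per kb), Slc3a2 (49.0 ± 5.94) and Slc43a2 (44.1 ± 12.9) came first, within each other's spread, and Slc38a2 followed at 18.6 ± 2.12. In mature macrophages Slc3a2 (65.5 ± 13.5 CPM per kb) and Slc38a10 (62.3 ± 9.13) stood above Slc43a2 (29.99 ± 2.98). With IL4 the order began with Slc3a2 at 73.3 ± 8.06 and Slc38a10 at 60.9 ± 2.50 CPM per kb, and the next, Slc36a4, was at 22.1 ± 3.55. In unstimulated macrophages it began with Slc38a10 at 63.1 ± 6.15, Slc43a2 at 48.3 ± 11.5, Slc3a2 at 44.1 ± 7.25 and Slc7a8 at 37.2 ± 7.96 CPM per kb. Slc43a2, a carrier of branched-chain and other large neutral amino acids, was thus second without IL4 and seventh with it, at 11.9 ± 1.20 CPM per kb. The exact places are not settled. Without IL4 it lay within the spread of Slc3a2 and Slc7a8, and with IL4 within that of Slc38a2 (15.3 ± 4.88) and Slc38a7 (11.6 ± 1.14).

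The balance between the heavy chain and its light chains differed between groups. The light chains known to pair with Slc3a2 that had reads here were Slc7a5, Slc7a6, Slc7a7, Slc7a8 and Slc7a11, while Slc7a10 had none. Slc3a2 over the sum of light chains, both per kilobase of exon, was 0.692 ± 0.0638 in precursors, 2.51 ± 0.686 in immature and 2.48 ± 1.44 in mature macrophages (SD, n = 3). All immature libraries (2.11 to 3.30) lay above all precursor libraries (0.630 to 0.757), and mature libraries ran from 0.859 to 3.60. With IL4 the ratio was 1.65 ± 0.217, and without it was 0.543 ± 0.0214, with no overlap. With IL4 the heavy chain was higher and the light chain sum lower, at 44.5 ± 0.993 CPM per kb against 81.0 ± 10.3 CPM per kb unstimulated. These are ratios of RNA levels and say nothing of protein.

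**Figure D2:**
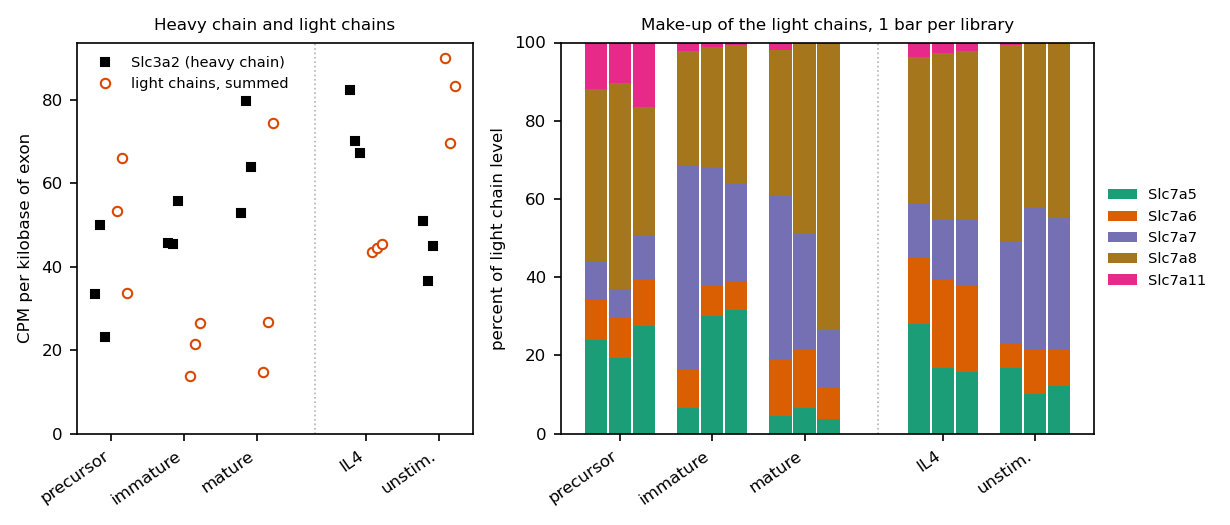
Left, CPM per kilobase of exon (y axis, linear from 0) of the heavy chain Slc3a2 (black squares) and of its light chains summed (open circles) in each library of the 5 groups (x axis). Right, the percent of the light chain sum held by each light chain, 1 bar per library in the order of mice 1 to 3. Slc7a11 holds 10.2 to 16.4% of the sum in precursors and at most 2.08% in the immature and mature libraries. Squares stand above circles in all immature and IL4 libraries.

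The make-up of the light chains also shifted. Slc7a8, which exchanges small and large neutral amino acids, held the most on average in precursors (43.3 ± 9.83%), mature (53.1 ± 18.3%), IL4 (41.1 ± 3.30%) and unstimulated macrophages (45.6 ± 4.19%). In immature macrophages its 32.0 ± 3.04% did not differ beyond spread from the 35.8 ± 14.3% of Slc7a7. Of the mature libraries, library 3 held 73.2% as Slc7a8, while library 1 held 37.3% as Slc7a8 and 41.5% as Slc7a7. Slc7a7, which exports arginine and lysine in exchange for neutral amino acids and sodium, held 15.3 ± 1.37% with IL4 and 32.1 ± 5.18% without. Slc7a6, a carrier of the same kind, held 20.6 ± 3.23% with IL4 and 9.04 ± 2.62% without.

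Of the 40 members, 21 had enough reads to be tested in the differentiation table. Of the others, 12 had no read and 7 had at most 34 reads over all 9 libraries. Between immature macrophages and precursors, 14 of the 21 were called, 7 higher and 7 lower, beside 49.2% of all 13359 genes tested (22.5% higher, 26.6% lower). In 7 members all immature libraries lay above all precursor libraries and in 9 below, beside 29.4% and 35.6% of all genes. Between mature and immature macrophages 5 were called, 1 higher and 4 lower, beside 14.9% of all genes (7.52% higher, 7.38% lower). All mature libraries lay above all immature ones in 1 member and below in 5, beside 16.8% and 15.4% of all genes. Between mature macrophages and precursors 16 were called, 7 higher and 9 lower, beside 54.3% of all genes (25.8% higher, 28.5% lower). All mature libraries lay above all precursor libraries in 8 members and below in 9, beside 29.7% and 34.4% of all genes. Slc43a1 and Slc36a2 passed the filter on low counts through precursors alone, so these counts do not speak for all members. The median log2 fold change of the tested members was -0.02 for immature over precursor, beside -0.07 for all genes, -0.26 beside 0 for mature over immature, and -0.44 beside -0.05 for mature over precursor. The medians of the comparisons with precursors were the same with members of 0 reads set at their bound. They had to be, because the bounds also lie below the medians.

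**Figure D3:**
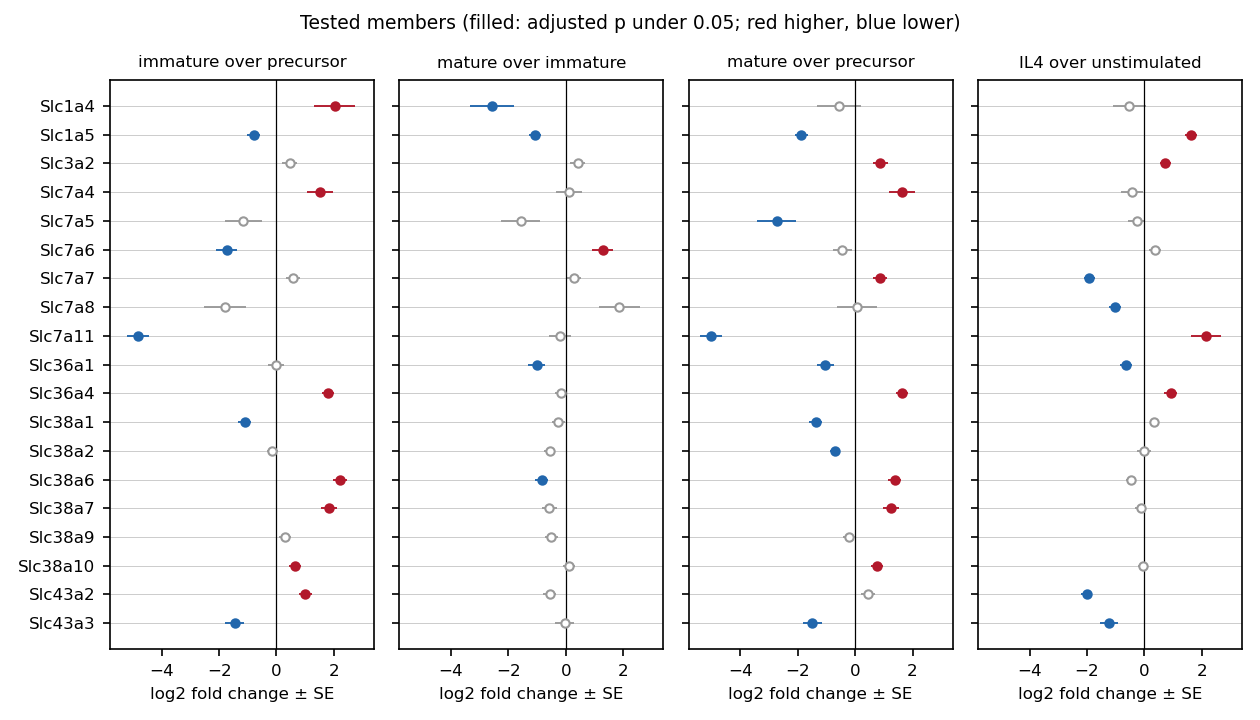
Log2 fold change ± SE (x axis) of each tested member (rows) in the 4 comparisons, with filled red points called higher, filled blue points called lower and open points not called. Slc43a1 and Slc36a2, which had libraries at 0, are left out, and Slc38a9 has no point for IL4. Slc7a11 stands at -4.82 and -5.01 against precursors and at 2.15 with IL4, while Slc43a2 stands at 1.01 in immature macrophages and -2.02 with IL4.

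The cystine carrier Slc7a11 (ENSMUSG00000027737, chr3:49892526-50443614, minus strand) had the lowest fold change among members with reads in all 9 libraries. It had 88.2, 94.0 and 76.7 CPM in precursors, 4.02, 3.07 and 1.92 CPM in immature and 3.97, 1.17 and 2.68 CPM in mature macrophages. All 6 macrophage libraries lay far below all precursor libraries. The log2 fold change was -4.82 ± 0.38 (SE) for immature over precursor, with an edgeR adjusted p of 6.59e-06. It was -5.01 ± 0.38 for mature over precursor, with an adjusted p of 3.16e-06. Mature and immature libraries overlapped, with -0.20 ± 0.38. Slc7a11 imports cystine in exchange for glutamate, and its upstream sequence with the paired TGATGCAA matches is shown above. Across stages it fell while the neutrophil and B cell markers fell too.

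**Figure D4:**
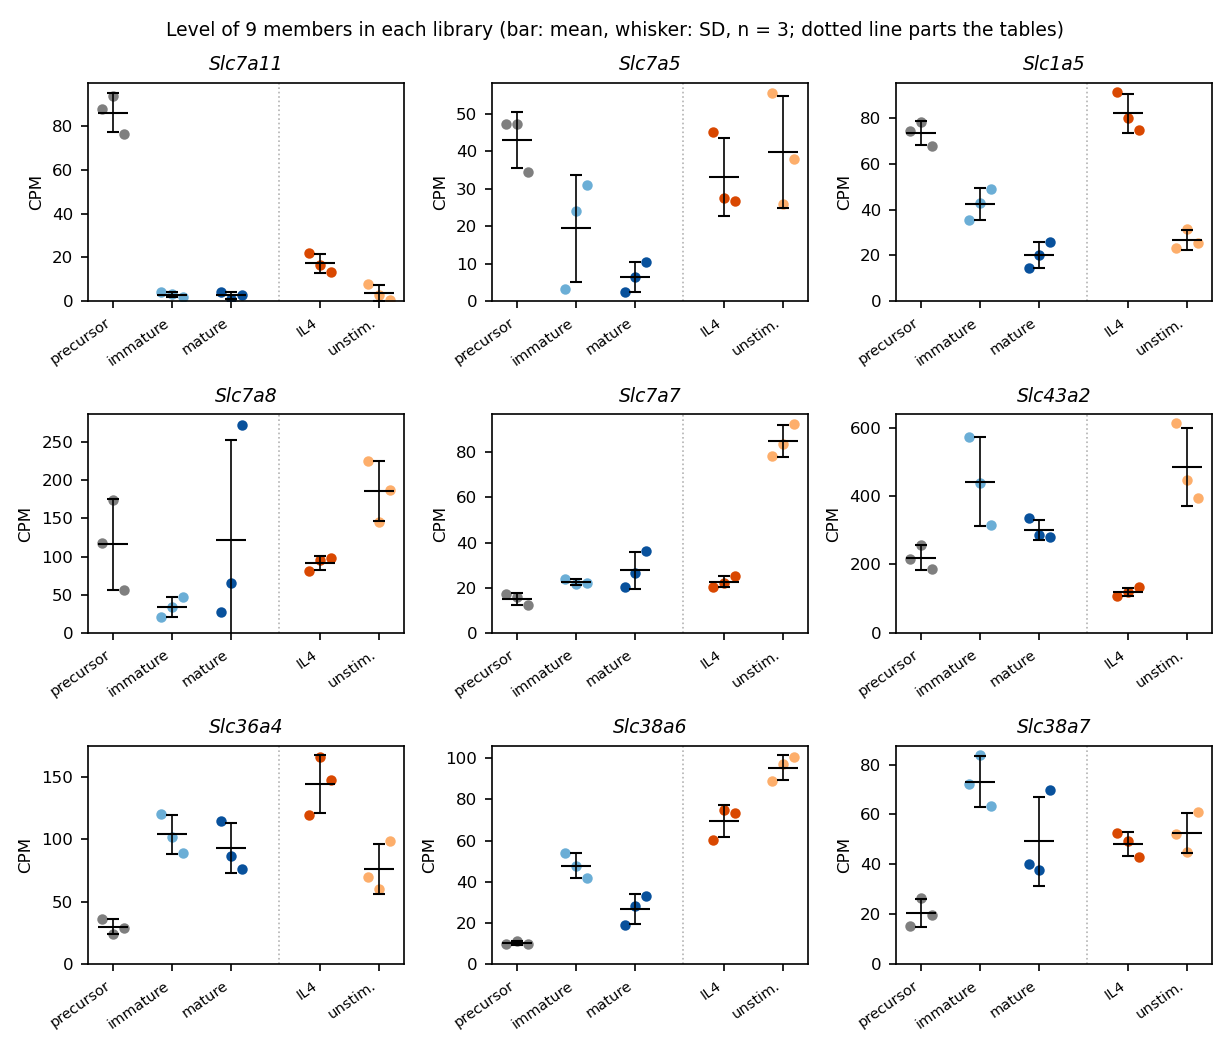
CPM (y axis, linear from 0) of 9 members in every library, with groups on the x axis, libraries as points and mean and SD as bars and whiskers (n = 3). Slc7a11 is high in precursors alone among the stages, Slc1a5 steps down over the stages and is higher with IL4, Slc43a2 is lower with IL4, and mature library 3 stands at 272 CPM for Slc7a8.

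Among the other partners of the heavy chain, Slc7a6 followed a dip at the immature stage. Its levels were 24.99, 31.6 and 18.4 CPM in precursors, 6.22, 7.57 and 8.94 CPM in immature and 9.79, 18.1 and 27.5 CPM in mature macrophages. Immature libraries lay below all others. It fell by 1.73 ± 0.36 on the log2 scale in immature macrophages relative to precursors (adjusted p = 0.00277). It rose by 1.29 ± 0.36 in mature relative to immature macrophages (adjusted p = 0.0366), a call lost when any 1 of mature libraries 2 and 3 or immature libraries 1, 2 and 3 was left out (0.88 to 1.38, adjusted p 0.056 to 0.116). Slc7a7 had 17.3, 15.8 and 12.2 CPM in precursors, 23.9, 21.5 and 22.1 CPM in immature and 20.2, 26.3 and 36.3 CPM in mature macrophages. Both macrophage stages lay above precursors, and mature over precursor was called at 0.87 ± 0.24 (adjusted p = 0.0107). An exon of Oxa1l on the other strand covers 7% of its exon length, and no strand setting is given.

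Slc7a5, which carries leucine and other large neutral amino acids, had 47.4, 47.2 and 34.3 CPM in precursors, 3.31, 23.9 and 30.9 CPM in immature and 2.51, 6.43 and 10.4 CPM in mature macrophages. Mature macrophages were lower than precursors by a log2 fold change of -2.73 ± 0.68 (adjusted p = 0.0063), without overlap. Immature library 1 stood well below the other immature libraries. Without it, mature over immature was called at -2.08 (adjusted p = 0.0129), against -1.57 ± 0.67 with it (adjusted p = 0.141). Slc1a4, an exchanger of alanine, serine and cysteine, was low in that library too, with 0.709, 6.55 and 9.20 CPM in immature macrophages, against 1.05, 0.702 and 0.918 CPM in mature macrophages and 1.38, 1.77 and 0.722 CPM in precursors. Its calls of 2.03 ± 0.71 for immature over precursor (adjusted p = 0.0363) and -2.57 ± 0.76 for mature over immature (adjusted p = 0.0448) rested on 2 libraries. They were lost when any of several single libraries was left out: precursor 1, 2 or 3 or immature 2 or 3 for the first (1.48 to 2.34, adjusted p 0.0588 to 0.135), and immature 2 or 3 or mature 1, 2 or 3 for the second (-2.70 to -2.01, adjusted p 0.0839 to 0.132). The 13 cell cycle genes summed to 441, 1559 and 2121 CPM in immature libraries 1 to 3, and their part in these levels was not tested.

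Slc7a8 varied widely between libraries. It had 118, 174 and 55.7 CPM in precursors, 20.5, 33.4 and 46.9 CPM in immature and 27.4, 65.3 and 272 CPM in mature macrophages. Immature libraries lay below all precursor libraries, with -1.79 ± 0.72 and an adjusted p of 0.0582, which missed the threshold. It was called with no filter on low counts (adjusted p = 0.0288), with the replicate block (0.0305), with only the 6 libraries compared (0.00881) and without precursor library 3 (-2.12, adjusted p = 0.0453). The authors' deposited table lists it there with an FDR of 4.02e-05. Mature library 3 stood above every other library of the table: without it mature over precursor was -1.32 (adjusted p = 0.0559), against 0.07 ± 0.69 with all libraries. Without mature library 1, mature over immature was called at 2.34 (adjusted p = 0.0347), against 1.86 ± 0.72 with all (adjusted p = 0.107). The heavy chain Slc3a2 had 118, 176 and 81.8 CPM in precursors, 161, 160 and 197 CPM in immature and 187, 281 and 226 CPM in mature macrophages. Mature libraries lay above precursors, with 0.88 ± 0.27 (adjusted p = 0.0176). That call was lost without precursor library 1 or 3 or mature library 2 (0.65 to 0.84, adjusted p 0.0596 to 0.0621).

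Of the carriers of glutamine at the cell surface, Slc1a5 fell at each stage. It had 74.4, 78.2 and 67.9 CPM in precursors, 35.4, 42.7 and 49.1 CPM in immature and 14.5, 20.0 and 25.9 CPM in mature macrophages. No stage overlapped another. The log2 fold change was -0.80 ± 0.22 for immature over precursor (adjusted p = 0.0124) and -1.07 ± 0.23 for mature over immature (adjusted p = 0.00995). Slc1a5 was the one member whose mature over immature call held under all 13 alternatives tried for that comparison. Slc38a1, a sodium-coupled importer of glutamine, had 119, 134 and 116 CPM in precursors, 48.5, 60.1 and 63.2 CPM in immature and 34.4, 43.5 and 65.0 CPM in mature macrophages. It was lower in both macrophage stages than in precursors (-1.10 ± 0.23, adjusted p = 0.00262, and -1.37 ± 0.23, adjusted p = 0.000577). Slc38a2, its relative that cells raise when amino acids are scarce, had 207, 163 and 174 CPM in precursors, 143, 172 and 178 CPM in immature and 104, 97.3 and 132 CPM in mature macrophages. Mature libraries were the lowest, and mature over precursor was called at -0.71 ± 0.18 (adjusted p = 0.00722). Its mature over immature value of -0.57 ± 0.18 missed the threshold (adjusted p = 0.0606).

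Slc38a7, which exports glutamine and asparagine from the lysosome, had 15.5, 26.3 and 19.6 CPM in precursors, 72.3, 84.0 and 63.2 CPM in immature and 40.3, 37.5 and 69.6 CPM in mature macrophages. All macrophage libraries lay above precursors, with 1.83 ± 0.28 for immature (adjusted p = 0.000401) and 1.26 ± 0.28 for mature (adjusted p = 0.00297) over precursor. Slc38a6, whose transport role is less well defined, had 9.67, 11.5 and 9.78 CPM in precursors, 54.1, 47.7 and 41.8 CPM in immature and 19.1, 28.4 and 33.0 CPM in mature macrophages. The 3 stages did not overlap. It was higher in immature macrophages than in precursors by 2.21 ± 0.23 (adjusted p = 3.6e-05), and in mature macrophages by 1.38 ± 0.23 (adjusted p = 0.000502). Mature over immature was -0.83 ± 0.22 (adjusted p = 0.0294), lost without immature library 1 or 2 or mature library 1 or 2 (-0.88 to -0.64, adjusted p 0.0608 to 0.0965).

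Slc36a4, a carrier with high affinity for proline and tryptophan, had 36.5, 24.6 and 28.8 CPM in precursors, 121, 102 and 89.0 CPM in immature and 115, 87.0 and 76.7 CPM in mature macrophages. Both macrophage stages stood above precursors, with 1.80 ± 0.22 (adjusted p = 9.9e-05) and 1.63 ± 0.22 (adjusted p = 0.000133). Its relative Slc36a1, the proton-coupled exporter of small amino acids from the lysosome, had 84.2, 72.8 and 76.6 CPM in precursors, 95.4, 81.5 and 53.4 CPM in immature and 27.3, 31.0 and 55.5 CPM in mature macrophages. Mature libraries lay below precursors, with -1.04 ± 0.29 (adjusted p = 0.0108). The mature over immature value of -1.02 ± 0.29 (adjusted p = 0.0374) was lost without immature library 1 or 2 or mature library 1 or 2 (-0.97 to -0.82, adjusted p 0.104 to 0.118). Between mature macrophages and precursors Slc36a1 fell and Slc38a7 rose, and the windows of both hold the E-box shown above. Slc38a9, the arginine sensor of the lysosome, ran from 27.2 to 48.0 CPM over the 9 libraries and was called in no comparison. Slc38a10 had 239, 251 and 218 CPM in precursors, 280, 364 and 461 CPM in immature and 447, 334 and 420 CPM in mature macrophages. Macrophages lay above precursors, and the immature call (0.64 ± 0.21, adjusted p = 0.0279) was lost without precursor library 1, 2 or 3 or immature library 2 or 3 (0.50 to 0.69, adjusted p 0.056 to 0.0862), and the mature one (0.76 ± 0.21, adjusted p = 0.0113) was lost with limma on the deposited log2 RPM values (0.54, adjusted p = 0.0642).

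In the SLC43 family the members took different directions. Slc43a2, which passes large neutral amino acids down their gradient, had 217, 257 and 186 CPM in precursors, 575, 439 and 315 CPM in immature and 336, 286 and 282 CPM in mature macrophages. All macrophage libraries lay above precursors, and immature over precursor was called at 1.01 ± 0.23 (adjusted p = 0.00479). Mature over precursor was 0.45 ± 0.23 (adjusted p = 0.122). Slc43a3, described in human cells as a carrier of purine bases, had 36.04, 42.8 and 35.03 CPM in precursors, 7.48, 16.1 and 18.1 CPM in immature and 8.98, 14.6 and 17.0 CPM in mature macrophages. It fell by 1.46 ± 0.33 in immature (adjusted p = 0.00434) and by 1.49 ± 0.33 in mature macrophages relative to precursors (adjusted p = 0.0032), on the log2 scale, with no overlap. Slc43a1, a relative of Slc43a2, had 0 reads in immature libraries and 115 in precursor libraries, at least 22.1-fold lower taking 3 reads over the group as the floor. Mature libraries held 1 read, 74.5-fold lower with a 95% counting interval of 13.1 to 2967, which covers counting error only. Slc36a2, a proton-coupled carrier of small amino acids, had 0 reads in mature libraries and 80 in precursor libraries, at least 17.3-fold lower by the same floor. In immature macrophages it had 0.236, 0.102 and 0.128 CPM, against 0.986, 1.33 and 2.57 CPM in precursors. It passed the low-count filter through precursors, so its fitted fold change is not given. Slc7a4, whose substrate is not settled, was at 0.968 to 1.45 CPM in precursors, 3.47 to 3.83 CPM in immature and 1.70 to 6.32 CPM in mature macrophages. It was called higher in both, at 1.52 ± 0.46 (adjusted p = 0.0198) and 1.63 ± 0.46 (adjusted p = 0.0123). Both calls were lost without precursor library 2 (1.33, adjusted p = 0.0772, and 1.45, adjusted p = 0.053), the first also without immature library 2 (1.52, adjusted p = 0.052) and the second without mature library 2 (1.16, adjusted p = 0.0558). Exons of P2rx6 on the other strand cover 13.3% of the exon length of Slc7a4.

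Other genes of amino acid handling were followed by list. Between immature macrophages and precursors, 9 of 22 tested amino acid response genes rose and 3 fell, with a median log2 fold change of 0.35, beside -0.07 and 49.2% called (22.5% higher, 26.6% lower) for all genes, against which each count of this comparison is to be read. Among those that rose, Atf3, a stress-induced transcription factor, averaged 192 CPM in immature macrophages and 25.5 CPM in precursors, and Gpt2, a mitochondrial alanine transaminase, 28.5 CPM and 4.399 CPM. Of 32 genes of amino acid sensing by mTORC1, 11 rose and 4 fell. The GTPase gene Rragc averaged 291 CPM in immature macrophages and 55.3 CPM in precursors (log2 fold change 2.39 ± 0.20). Of 16 branched-chain amino acid enzymes 10 rose and none fell, and of 21 glutathione and cystine handling genes 8 rose and 5 fell. The lysosomal cystine exporter Ctns averaged 73.2 CPM in immature macrophages and 21.3 CPM in precursors, and glutathione reductase Gsr 125 CPM and 754 CPM. Of 21 other amino acid carriers 9 rose and 7 fell, the creatine carrier Slc6a8 with 72.5 CPM in immature macrophages and 4.06 CPM in precursors. Of 17 glutamine and glutamate enzymes 7 rose and 5 fell, with glutamine synthetase Glul at 232 CPM in immature macrophages and 73.6 CPM in precursors. Of 20 aminoacyl-tRNA synthetases 6 rose and 2 fell, and 5 in all were called without precursor library 1 or 3 or immature library 2.

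Between mature and immature macrophages 14.9% of all genes were called (7.52% higher, 7.38% lower). Of 21 glutathione and cystine handling genes 5 rose and 2 fell, with thioredoxin reductase Txnrd1 at 455 CPM in mature and 147 CPM in immature macrophages, and the glutathione synthesis gene Gclm at 181 CPM and 81.4 CPM. Of 32 genes of amino acid sensing by mTORC1, 2 rose and 3 fell, and of 21 other amino acid carriers 2 rose and 5 fell. Of 17 glutamine and glutamate enzymes 2 rose and none fell. Of 20 aminoacyl-tRNA synthetases 1 rose and none fell, and of 16 branched-chain amino acid enzymes none rose and 1 fell. Of 22 amino acid response genes none rose and 5 fell, 2 to 9 in all with 1 library left out. Phgdh, the first enzyme of serine synthesis, averaged 0.354 CPM in mature and 39.2 CPM in immature macrophages (log2 fold change -6.75 ± 0.59, adjusted p = 7.8e-05). It averaged 89.5 CPM in precursors. Between mature macrophages and precursors 54.3% of all genes were called (25.8% higher, 28.5% lower). There 4 of the 22 response genes rose and 6 fell, with a median log2 fold change of -0.05, beside -0.05 for all genes. Of the 20 synthetases 10 rose and 1 fell, 5 to 9 in all with 1 library left out.

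IL4 changed transporters in both directions, raising Slc1a5, Slc3a2, Slc7a11 and Slc36a4 and lowering Slc36a1, Slc7a7, Slc7a8, Slc43a2 and Slc43a3. Tests in the IL4 table covered 18 members. Of the others 19 had no read and 3 had at most 10 reads, Slc38a9 among them with 2, a table in which the cell cycle genes Pcna and Ccnb1 are listed at 0 as well. With IL4, 9 of the 18 were called, 4 higher and 5 lower, beside 20.8% of all 8936 genes tested (10.5% higher, 10.3% lower). All IL4 libraries lay above all unstimulated ones in 5 members and below in 6, beside 18.4% and 17.4% of all genes. With the replicate number as a block, 10 members and 2883 genes were called, against 9 and 1855 without it. The median log2 fold change of the members was -0.20, beside 0.01 for all genes. Without unstimulated library 2 the count of members was 5. The 13 cell cycle genes summed to 146 to 389 CPM with IL4 and 495 to 805 CPM without, and the 9 macrophage genes measured to 5985 to 6952 CPM with IL4 and 7580 to 11021 CPM without. The part of either list in these results was not tested.

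The glutamine carrier Slc1a5 was the one member whose rise with IL4 held under all 13 alternatives tried. It had 91.4, 79.9 and 74.6 CPM with IL4 and 23.2, 31.7 and 25.6 CPM without. The groups were far apart, with a log2 fold change of 1.62 ± 0.19 (adjusted p = 0.00016). The sodium-coupled glutamine carriers did not pass the test. Slc38a1 had 89.3, 94.8 and 92.7 CPM with IL4 and 76.6, 67.9 and 74.3 CPM without, groups that did not overlap (0.34 ± 0.16, adjusted p = 0.175). Slc38a2 had 183, 98.4 and 124 CPM with IL4 and 164, 120 and 127 CPM without, with overlap (-0.02 ± 0.24, adjusted p = 0.968).

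The cystine carrier Slc7a11 had 22.2, 16.5 and 13.5 CPM with IL4 and 7.73, 2.88 and 0.739 CPM without. All IL4 libraries lay above all unstimulated ones, which spread widely. Its log2 fold change was 2.15 ± 0.51 (adjusted p = 0.0119), and without unstimulated library 2 it was 2.02 (adjusted p = 0.0652). The heavy chain Slc3a2 had 291, 247 and 238 CPM with IL4 and 180, 129 and 159 CPM without. It rose by 0.73 ± 0.18 on the log2 scale (adjusted p = 0.0146), and by 0.62 without unstimulated library 2, which ended the call (adjusted p = 0.0529). The leucine carrier Slc7a5 had 45.2, 27.4 and 26.6 CPM with IL4 and 55.5, 25.9 and 37.9 CPM without, where library 1 was highest in both groups and the groups overlapped (-0.27 ± 0.30, adjusted p = 0.607). Slc7a6 had 33.7, 46.6 and 45.7 CPM with IL4 and 26.2, 37.0 and 34.7 CPM without, also with overlap (0.37 ± 0.21, adjusted p = 0.287).

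The other partners of the heavy chain fell. Slc7a7 had 20.3, 22.1 and 25.3 CPM with IL4 and 78.5, 83.9 and 92.8 CPM without. Every IL4 library lay below every unstimulated one, with a log2 fold change of -1.91 ± 0.18 (adjusted p = 4.18e-05). Slc7a8 had 81.3, 94.8 and 98.6 CPM with IL4 and 225, 146 and 187 CPM without. It was lower in all 3 IL4 libraries (-1.03 ± 0.20, adjusted p = 0.00341). The SLC43 carriers fell with them. Slc43a2 (ENSMUSG00000038178, chr11:75531694-75577575, plus strand) had 109, 119 and 132 CPM with IL4 and 615, 446 and 395 CPM without. Its log2 fold change of -2.02 ± 0.20 (adjusted p = 5.82e-05) was the lowest among the 18 members. The antisense gene Gm45606 covers 9.18% of its exon length. Slc43a3 had 4.81, 8.59 and 3.29 CPM with IL4 and 13.6, 13.2 and 12.8 CPM without (-1.25 ± 0.31, adjusted p = 0.0152). That call was lost without unstimulated library 2 (-1.25, adjusted p = 0.0506), without IL4 library 3 (-0.99, adjusted p = 0.0545) and without both libraries numbered 1 (-1.12, adjusted p = 0.0598).

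The proton-coupled carriers parted. Slc36a4 had 120, 166 and 148 CPM with IL4 and 70.0, 60.5 and 98.7 CPM without. It rose by 0.91 ± 0.22 on the log2 scale (adjusted p = 0.0119), a call lost without unstimulated library 2 (0.78, adjusted p = 0.0514) or IL4 library 2 (0.81, adjusted p = 0.0554). Slc36a1 had 29.1, 43.3 and 38.8 CPM with IL4 and 63.5, 48.1 and 61.8 CPM without. It was lower in all 3 IL4 libraries (-0.65 ± 0.21, adjusted p = 0.0487), close to the threshold, and was not called without unstimulated library 1 or 3 or any 1 of the IL4 libraries (-0.77 to -0.50, adjusted p 0.066 to 0.143), or without both libraries numbered 1 (-0.43, adjusted p = 0.232). The other lysosomal carrier with an E-box, Slc38a7, had 52.4, 49.2 and 43.1 CPM with IL4 and 52.0, 44.8 and 61.1 CPM without, with overlap (-0.13 ± 0.19, adjusted p = 0.714). Slc38a6 had 60.4, 74.7 and 73.3 CPM with IL4 and 89.0, 97.1 and 100.4 CPM without, and every IL4 library lay below every unstimulated one. It missed the threshold at -0.46 ± 0.17 (adjusted p = 0.0814) and passed it with the replicate number as a block (-0.47, adjusted p = 0.0243). Slc38a10 (-0.05 ± 0.16), Slc1a4 (-0.53 ± 0.57) and Slc7a4 (-0.42 ± 0.38) were not called.

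Genes that answer to scarce amino acids rose with IL4 in number. Of 18 tested amino acid response genes, 9 rose and 1 fell, with a median log2 fold change of 1.11, beside 0.01 and 20.8% called for all genes. Atf3 averaged 1582 CPM with IL4 and 195 CPM without (3.02 ± 0.20), and the asparagine synthetase gene Asns 37.8 CPM and 8.16 CPM (2.19 ± 0.28). Psat1, an enzyme of serine synthesis, averaged 144 CPM with IL4 and 40.2 CPM without (1.84 ± 0.22). Atf4, whose protein drives many of these genes, was at 610 CPM with IL4 and 275 CPM without (1.15 ± 0.17, adjusted p = 0.000687). The gene that fell was Ddit4, an inhibitor of mTORC1, with 3.68 CPM with IL4 and 8.50 CPM without. Atf4 and Ddit4 were named after their values were seen. The count was 9 to 12 with any 1 library left out.

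**Figure D5:**
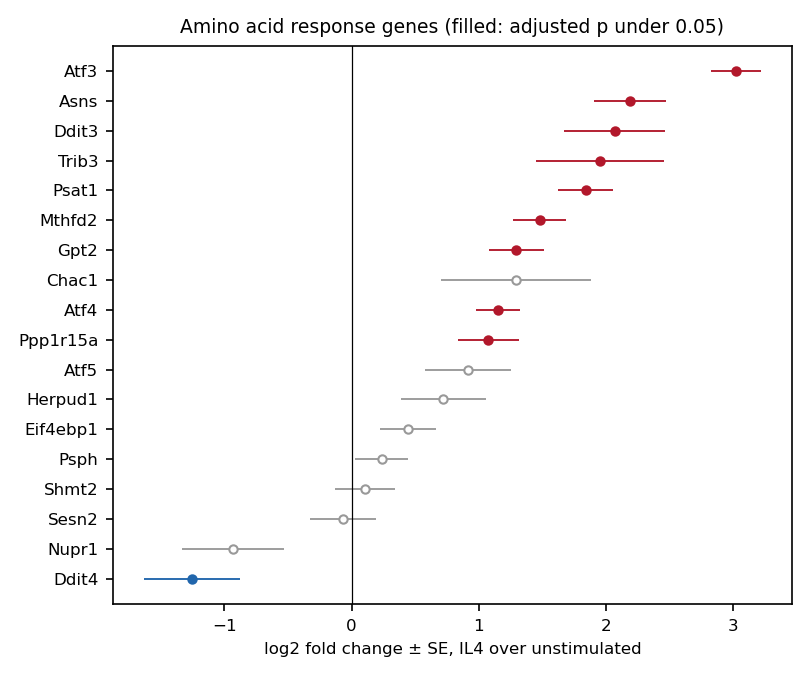
Log2 fold change ± SE (x axis) with IL4 over unstimulated macrophages for the 18 tested amino acid response genes (rows, sorted by value), filled where called (red higher, blue lower) and open where not. Atf3 is at the top at 3.02 and Ddit4 at the bottom at -1.26, with 9 genes called higher.

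The counts of the other lists with IL4 stand beside 10.5% higher and 10.3% lower among all genes, and some were close to these shares. Of 20 aminoacyl-tRNA synthetases 5 rose and none fell, with Eprs at 355 CPM with IL4 and 156 CPM without, and Aars at 496 CPM and 270.0 CPM. That count was 3 without unstimulated library 2 and 8 with the replicate number as a block. Of 16 other amino acid carriers 6 rose and 1 fell, and the lysosomal histidine and peptide carrier Slc15a3 averaged 533 CPM with IL4 and 112 CPM without (2.25 ± 0.23). Of 15 glutamine and glutamate enzymes 4 rose, with Gfpt1, which uses glutamine to make hexosamine, at 186 CPM with IL4 and 76.2 CPM without. Of 27 genes of amino acid sensing by mTORC1, 5 rose and 2 fell, and 2 to 7 in all were called with 1 library left out (2 without IL4 library 2 or 3, 3 without unstimulated library 2 or 3). Tfeb, a transcription factor of lysosome genes, averaged 130 CPM with IL4 and 56.7 CPM without. Of 18 glutathione and cystine handling genes 3 rose and 3 fell, with haem oxygenase Hmox1 at 599.6 CPM with IL4 and 1269 CPM without. Of 16 branched-chain amino acid enzymes 2 rose and 1 fell, and the transaminase Bcat2 averaged 237 CPM with IL4 and 130.0 CPM without.

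The authors' own lists were close to these calls except between mature and immature macrophages. They rest on the same libraries, so the overlap is not independent support. For mature over precursor, the authors' deposited table held 16 members, all of them among the 16 called here. For immature over precursor the authors' deposited table held 16 members, of which 14 were the 14 called here and the others were Slc7a8 and Slc7a13. Slc7a13, which had 13 reads in all, all in immature libraries, was below the filter used here. For mature over immature the authors' deposited table held 3 members, 2 of them among the 5 called here. Slc7a13 was in their list alone, and Slc7a6, Slc36a1 and Slc38a6 were called here alone. With IL4 the authors' deposited table held 8 members, all among the 9 called here, and the other was Slc36a1.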

How the data were processed

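The members, gene lists and rules were chosen with earlier results of these data known. Reads were Ion Torrent RNA-seq from total RNA. Per the submitters' processing notes, HISAT2 2.0.5 and edgeR (no version) were used, and the builds named are GRCm38.p6 and GRCm39.p6. How reads were assigned to genes, and whether by strand, is not given in the sources used. The authors deposited whole-number counts for 9 differentiation and, in another table, 6 IL4 libraries, log2 RPM values for the same genes, and lists with adjusted p-values (FDR).

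From the counts, edgeR 4.0.16 under R 4.3.3 kept genes by filterByExpr (minimum count 10), scaled by TMM and ran glmQLFit and glmQLFTest, 1 fit per table, two-sided, with Benjamini-Hochberg adjustment over all genes tested and calls at adjusted p under 0.05. SE is the log2 fold change over the root of F. CPM per kb uses GENCODE exon lengths on GRCm38; coordinates are those of the differentiation table. Members were named where called with a log2 fold change of at least 1 in size and 5 CPM in the higher group, with Slc3a2, Slc7a5, Slc7a11, Slc1a5 and Slc38a2 always and others by description. List genes were up to 3 called per comparison, by lowest p. The tests were tried on simulated data. Alternatives were RLE scaling, 2 other filters, DESeq2 1.42.0, limma 3.58.1 on the log2 RPM, fewer libraries and a replicate block. In the IL4 table, the deviations of same-numbered libraries had r = 0.591, 0.175 and 0.413, and those of other pairs ran from -0.487 to 0.247. This check does not settle whether the numbers pair the libraries, and the table's columns carry 6 different names. The main IL4 tests did not pair libraries, and the replicate block was an alternative. P-values measure the spread between these libraries.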

Additional observations from a re-analysis of the deposited data

How the results depend on the processing

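Of 44 member calls in the 4 comparisons, 29 held under every alternative tried (13 per comparison) and 15 were lost under at least 1. None of the 44 changed sign. The 29 include the calls of Slc43a1 and Slc36a2 against precursors. Both genes passed the low-count filter through precursors alone, so these calls do not speak for stability. The count of members called between mature and immature macrophages was 5, against 1 with the replicate block, 2 with limma on the log2 RPM values, 1 with only the 6 libraries compared, and 1 to 5 with 1 library left out. The count over all genes there was 1991, against 1245 with only those 6 libraries and 1007 to 2702 with 1 library left out. With IL4, 5 to 8 members were called with 1 library left out, and 1375 to 1694 genes against 1855, or 2883 with the replicate block.

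In the differentiation table, same-numbered libraries did not deviate together (r of -0.129 to 0.165). With so few libraries per group, this check cannot tell whether same-numbered libraries come from the same mouse. Under the block 14 members were called for immature over precursor and 16 for mature over precursor. For immature over precursor Slc1a4 and Slc38a10 were lost, and Slc7a5 (-1.63, adjusted p = 0.0469) and Slc7a8 (-2.06, adjusted p = 0.0305) were gained. In the IL4 table the block changed no other member's call than that of Slc38a6.

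Members that changed sign had not been called. With 1 library left out, immature over precursor of Slc36a1 ran from -0.20 to 0.23. Mature over immature of Slc7a11 ran from -0.61 to 0.11, of Slc43a3 from -0.34 to 0.20, of Slc7a4 from -0.36 to 0.48 and of Slc38a10 from -0.044 to 0.28. That of Slc43a1 ran from 0.00 to 2.53 and did not turn negative, and it rested on 1 read in mature and 0 reads in immature libraries. Mature over precursor of Slc7a8 ran from -1.32 to 0.55, was -0.51 with the block and -0.46 with limma, where Slc1a4 was 1.00, and Slc38a9 ran from -0.32 to 0.0073. Slc7a4, mature over immature, was -0.050 with limma. With IL4, Slc1a4 ran from -1.17 to 0.27, Slc7a5 from -0.57 to 0.043, Slc38a2 from -0.30 to 0.17, Slc7a4 from -0.71 to 0.087 and Slc38a10 from -0.096 to 0.034. The cause was not tested in any of these cases.

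The 6 libraries of the IL4 table are shallower than the others, and Slc7a11 had 217 reads in them in all, against 4820 in the differentiation table.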
